A study of Mus musculus with 42 samples.

Results

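Chromatin immunoprecipitation and sequencing of β-catenin was examined at the genomic regions that were called in all 3 β-catenin libraries of cells lacking T (T/BraKO) and in none of the 3 libraries of wild-type (WT) cells. These gained regions numbered 562 of 96109 merged β-catenin regions, or 0.585%. To define them, the 20000 best peaks of each of the 9 deposited β-catenin lists were taken, overlapping peaks (1 bp or more) were joined into regions, and a library is said to call a region that contains one or more of its 20000 best peaks. The β-catenin calls of T/BraKO and WT chose the regions, so these calls are given as a description and carry no test. Other sets chosen from the same 6 libraries serve for comparison, namely 419 regions lost in T/BraKO (called in all 3 WT lists and no T/BraKO list) and 3866 regions called in all 6 lists.

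All groups were HM1 (129) embryonic stem cells differentiated in vitro to epiblast-like cells with bFGF and LGK974, which blocks WNT secretion, and collected at 72 h. T/Bra-/- cells, Cdx1/2/4-/- cells (CdxKO) and wild-type cells received CHIR99021 (CHIR), a GSK3 inhibitor, for the last day, and SOX2 was also measured in wild-type cells that stayed in bFGF and LGK974 without it (noCHIR). Each group had 3 libraries, labelled as biological replicates. Genotype was carried by separate cell lines, so line and genotype cannot be told apart. Whether a mutant line was a single clone is not given in the sources used here.

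β-catenin carries the canonical WNT signal to the nucleus, where it has no DNA-binding domain of its own and is held on chromatin mainly by the TCF/LEF proteins, among them LEF1. T, also called Brachyury, is a T-box transcription factor that is switched on by WNT signalling in the primitive streak and is needed for posterior mesoderm. The CDX factors promote caudal identity in the same cells. SOX2 binds pluripotency and neural enhancers and falls as cells of the caudal epiblast leave pluripotency.

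The deposited lists of the 30 immunoprecipitated libraries held between 26940 and 1008922 peaks, those of β-catenin between 37687 and 469083, and the −log10 q of the 20000th β-catenin peak lay between 4.29 and 11.1. Ranks were therefore used to take the same number of peaks from each list. An equal rank did not mean equal enrichment. The 20000th peak had a −log10 q of 4.29, 5.64 and 11.1 in WT and 7.77, 6.07 and 5.35 in T/BraKO. Fold enrichment is the deposited ratio of reads at a summit to the local background, and it was not scaled between libraries. No read counts were used, so the sequencing depth is unknown.

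The DNA sequences of 14 of the gained regions are shown because the results below turn on the letters they hold. Each is the mm10 plus strand, read from GRCm38, over 100 bp on each side of the β-catenin summit. Capitals mark matches on either strand to TCF/LEF (CTTTGA followed by A or T), SOX (CC, then A or T, then TTGT), octamer (ATGCAAAT) and ZIC (CAGCAGG) letters. The first 5 belong to regions among the 10 best ranked.
Arhgef3, chr14:27360326-27360526: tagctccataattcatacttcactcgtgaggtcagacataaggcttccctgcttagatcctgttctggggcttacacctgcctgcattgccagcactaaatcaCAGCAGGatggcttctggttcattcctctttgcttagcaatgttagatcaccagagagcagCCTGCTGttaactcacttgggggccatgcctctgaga
Ptprg, chr14:11671003-11671203: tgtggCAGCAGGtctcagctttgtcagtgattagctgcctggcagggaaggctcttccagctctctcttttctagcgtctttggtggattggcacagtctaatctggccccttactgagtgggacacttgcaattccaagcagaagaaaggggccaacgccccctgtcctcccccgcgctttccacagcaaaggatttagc
Csrnp3, chr2:65848713-65848913: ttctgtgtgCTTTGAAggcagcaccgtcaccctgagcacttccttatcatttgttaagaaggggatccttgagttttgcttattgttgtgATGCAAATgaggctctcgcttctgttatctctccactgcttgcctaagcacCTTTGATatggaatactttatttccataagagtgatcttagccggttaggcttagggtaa
Meaf6, chr4:125096965-125097165: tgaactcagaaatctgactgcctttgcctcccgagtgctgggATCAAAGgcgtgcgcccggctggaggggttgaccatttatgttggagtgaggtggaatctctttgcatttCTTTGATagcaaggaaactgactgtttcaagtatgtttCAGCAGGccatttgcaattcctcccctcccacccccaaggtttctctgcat
Foxk1, chr5:142410659-142410859: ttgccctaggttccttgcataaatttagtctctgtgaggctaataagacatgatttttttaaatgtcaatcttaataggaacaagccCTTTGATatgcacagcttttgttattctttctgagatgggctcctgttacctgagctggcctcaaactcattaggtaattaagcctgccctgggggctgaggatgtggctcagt
The next 3 belong to the best ranked gained regions that had no peak in any full WT list, whatever its rank.
Dab2, chr15:5851068-5851268: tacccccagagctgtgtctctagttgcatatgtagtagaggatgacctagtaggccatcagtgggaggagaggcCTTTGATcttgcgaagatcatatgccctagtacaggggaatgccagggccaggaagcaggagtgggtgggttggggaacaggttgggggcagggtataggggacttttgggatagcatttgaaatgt
Kcnt2, chr1:140429433-140429633: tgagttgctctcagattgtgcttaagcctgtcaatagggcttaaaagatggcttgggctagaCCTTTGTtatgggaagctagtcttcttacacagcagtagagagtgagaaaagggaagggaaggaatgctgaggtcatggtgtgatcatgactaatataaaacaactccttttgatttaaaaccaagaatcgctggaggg
Adgrl2, chr3:147963715-147963915: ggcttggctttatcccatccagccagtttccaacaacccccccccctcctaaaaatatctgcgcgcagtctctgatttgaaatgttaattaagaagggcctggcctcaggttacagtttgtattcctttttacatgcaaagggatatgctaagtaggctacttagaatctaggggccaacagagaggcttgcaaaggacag
A further 3 belong to the best ranked gained regions with SOX2 among the 20000 best peaks of all T/BraKO lists and of no WT list. These 3 held lower ranked SOX2 peaks in every full WT list.
Etv5, chr16:22402745-22402945: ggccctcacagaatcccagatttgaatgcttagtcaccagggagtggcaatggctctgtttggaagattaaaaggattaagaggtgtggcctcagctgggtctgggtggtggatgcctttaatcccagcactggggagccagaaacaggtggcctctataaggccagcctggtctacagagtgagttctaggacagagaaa
Thsd4, chr9:60285082-60285282: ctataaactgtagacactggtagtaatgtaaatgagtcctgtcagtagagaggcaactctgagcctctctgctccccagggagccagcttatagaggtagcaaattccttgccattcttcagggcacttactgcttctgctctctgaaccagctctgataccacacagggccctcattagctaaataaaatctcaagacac
Nxph1, chr6:8875663-8875863: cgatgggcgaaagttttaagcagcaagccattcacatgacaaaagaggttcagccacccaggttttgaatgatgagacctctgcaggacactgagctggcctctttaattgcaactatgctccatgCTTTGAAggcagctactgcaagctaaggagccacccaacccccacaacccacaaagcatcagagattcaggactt
The last 3 belong to gained regions near developmental genes.
Dbx2, chr15:95651891-95652091: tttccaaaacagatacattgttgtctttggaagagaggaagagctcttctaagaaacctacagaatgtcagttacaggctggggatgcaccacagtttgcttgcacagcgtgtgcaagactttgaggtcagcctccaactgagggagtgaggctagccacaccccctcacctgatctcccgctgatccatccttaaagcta
Bmp4, chr14:46398574-46398774: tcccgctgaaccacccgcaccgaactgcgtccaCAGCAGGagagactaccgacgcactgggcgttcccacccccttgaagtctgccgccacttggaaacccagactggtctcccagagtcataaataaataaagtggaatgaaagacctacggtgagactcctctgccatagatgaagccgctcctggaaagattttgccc
Tfcp2l1, chr1:118625519-118625719: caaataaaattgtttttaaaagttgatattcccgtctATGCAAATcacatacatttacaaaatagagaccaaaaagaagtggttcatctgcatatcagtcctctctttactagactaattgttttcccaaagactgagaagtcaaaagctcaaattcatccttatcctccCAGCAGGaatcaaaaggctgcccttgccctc
The windows differed in kind. Csrnp3 and Meaf6 each held 2 TCF/LEF matches, Foxk1, Dab2 and Nxph1 held 1, and the remaining 9 held none. A SOX match lay in the Kcnt2 window and in no other of the 14, the Etv5 and Thsd4 windows included.

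By construction the gained regions sat within the first 20000 peaks of every T/BraKO list, with median ranks of 8872, 8843 and 9239 in replicates 1 to 3. Most also held a lower ranked peak in at least 1 full WT list. In the full lists, 458 of the 562 regions held a WT peak below rank 20000: 104 had a peak in no WT list, 226 in 1, 169 in 2 and 63 in all 3. Their best WT rank had a median of 38681, and for 163 regions (29.0%) it was better than 30000. The share with a peak followed the length of the WT list, at 27.8% of regions in replicate 1 (40067 peaks), 42.2% in replicate 2 (108507 peaks) and 64.1% in replicate 3 (469083 peaks). Where a peak existed, the median fold enrichment was 3.97, 4.60 and 5.23 in the WT libraries, against 8.62, 6.995 and 6.67 in the T/BraKO libraries.

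**Figure D1:**
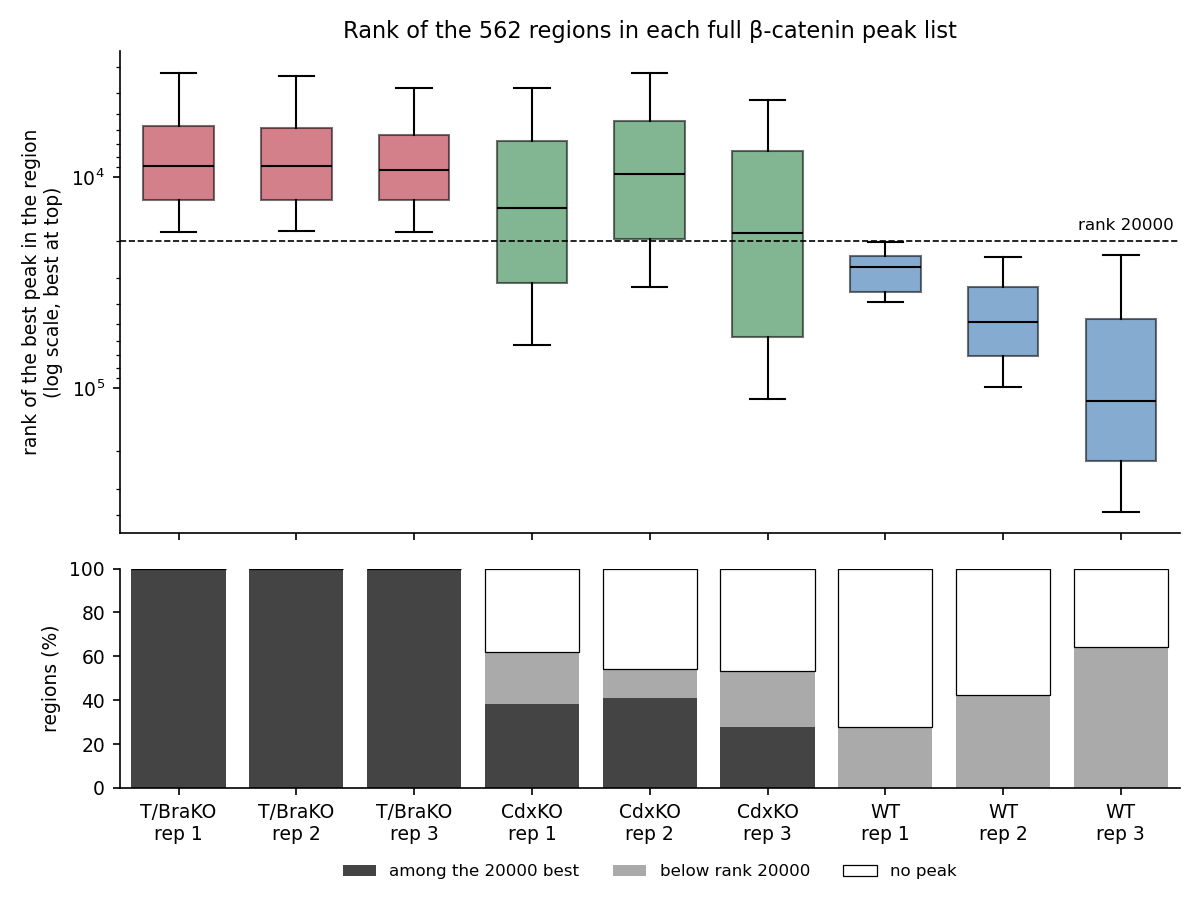
Upper panel, rank of the best peak of each gained region in each full β-catenin list (log axis, best at top) for the regions that held a peak; boxes span the quartiles, lines mark medians, and whiskers reach the 5th and 95th percentiles. Lower panel, share of the 562 regions whose best peak ranked among the 20000 best, ranked lower, or was missing; 27.8% to 64.1% of the regions held a WT peak below the threshold, and the median ranks of the CdxKO libraries lay between those of T/BraKO and WT.

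Regions at the edge of the rule show how narrow it was. Just inside it, the Rgs17 region ranked 19995 in T/BraKO replicate 1 and the Car2 region ranked 20036 in WT replicate 2. At Rgs17 the fold enrichment was 6.46, 13.2 and 7.74 in T/BraKO and 4.78 and 7.61 in WT replicates 2 and 3, so the values overlapped. Just outside it, the 1700025C18Rik region ranked 20037 in T/BraKO replicate 2 and had no WT peak at all, and the Crim1 region ranked 19970 in WT replicate 1 and no better than 155834 in any other WT list. With the 10000 best peaks in place of 20000, 304 regions were gained and 129 of the 562 were overlapped by them, and with the full lists 552 were gained and 103 of the 562 were overlapped.

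The choice of regions was then repeated without the calls of 1 library at a time, and the calls of the library left out were read. The list left out still helped to form the merged regions, so it was not fully independent of the choice. These shares are a description and not a test. Of the regions chosen without T/BraKO replicate 1, 2 or 3 (1026, 1452 and 1339 regions), 54.8%, 38.7% and 42.0% were called in the T/BraKO library left out, against 20.3% to 20.4% of all regions. Of the regions chosen without WT replicate 1, 2 or 3 (1214, 820 and 767 regions), 53.7%, 31.5% and 26.7% were called in the WT library left out, against 20.2% to 20.6% of all regions. A left-out WT library thus also called the chosen regions more often than it called an average region. With 1 library of each genotype left out together, the left-out T/BraKO library called between 41.9% and 64.4% of the chosen regions and the left-out WT library between 18.7% and 45.5%, and the T/BraKO share was the higher one in 9 of 9 choices, which share libraries with each other.

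The best ranked gained region lay in an intron of Arhgef3 (chr14:27360319-27360643, 24360 bp downstream of a start site). Its fold enrichment was 22.8, 18.1 and 12.9 in T/BraKO and 3.53, 4.84 and 5.47 in WT. In CdxKO a peak was present in replicate 2 only, at 4.27. Both other genotypes lay below all T/BraKO libraries here. Choosing regions by high T/BraKO and low WT ranks favours such a gap, here and at the regions named below.

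In contrast, the next regions were also occupied in CdxKO. An intronic region of Ptprg, a receptor-type tyrosine phosphatase gene (chr14:11670895-11671308), reached 18.96, 16.5 and 14.0 in T/BraKO and 12.7, 16.6 and 5.81 in CdxKO, with 3.41 and 4.10 in the 2 WT lists that held a peak. An intergenic region 236561 bp from Pik3c3, the gene of the class III phosphatidylinositol 3-kinase (chr18:30509223-30509652), gave 23.3, 18.1 and 9.58 in T/BraKO, 9.60, 14.0 and 7.86 in CdxKO and 4.19, 5.65 and 4.99 in WT. The CdxKO and T/BraKO values overlapped at both regions and the WT values lay below them.

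Csrnp3, which encodes a cysteine- and serine-rich nuclear protein, carried an intronic region 2971 bp from its start site (chr2:65848640-65849192) with 23.3, 10.6 and 12.5 in T/BraKO, 11.1, 10.3 and 5.23 in CdxKO and 5.23 and 4.67 in the 2 WT lists with a peak. An intronic region 28320 bp upstream of Spry4, a feedback inhibitor of FGF signalling (chr18:38629469-38629911), had 12.04, 15.4 and 17.7 in T/BraKO, 4.63, 7.56 and 4.57 in CdxKO and 5.23 and 6.50 in the 2 WT lists with a peak. At Spry4 the CdxKO values overlapped those of WT, and T/BraKO stood above both. The regions ranked 6 to 10 were nearest to Meaf6 (a subunit of histone acetyltransferase complexes), Foxk1 (a forkhead transcription factor), 4921530L21Rik, Igf2r (the receptor that clears IGF2) and Xylt1 (which starts glycosaminoglycan chains on proteoglycans). Their T/BraKO folds ranged from 7.41 to 18.96, and no WT fold at these 5 regions was above 5.21.

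Among the 104 gained regions with no peak in any full WT list, the 5 best ranked were nearest to Dab2, Kcnt2, Adgrl2, Adgrl3 and Setmar. Dab2 encodes an endocytic adaptor, Kcnt2 a sodium-activated potassium channel, and Adgrl2 and Adgrl3 latrophilins, which are adhesion receptors. The region 448620 bp upstream of Dab2 (chr15:5850808-5851307) had 13.8, 12.8 and 8.84 in T/BraKO and a single CdxKO peak at 7.72. The Adgrl2 region, 859164 bp from that gene's start site (chr3:147963643-147964110), had 12.1, 8.64 and 9.95 in T/BraKO and was called in all 3 CdxKO lists at 9.08, 6.77 and 6.55. The region nearest to Setmar, a gene with a histone methyltransferase domain, lay in an exon annotated as untranslated, 42550 bp downstream of the start site (chr6:108107455-108107872), with 13.8, 6.995 and 10.3 in T/BraKO and 3.22 and 9.82 in the 2 CdxKO lists with a peak. Regions without any WT peak were thus not all without CdxKO occupancy.

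Most gained regions lay away from promoters. For 51 regions the summit lay at most 1000 bp from an annotated start site (9.07%, 95% Wilson interval 6.97 to 11.7), against 13.8% of all regions and 13.6% of the regions called in all 6 lists. Another 232 (41.3%) lay in introns and 267 (47.5%) between genes, leaving 3 in coding exons, 3 in UTR exons and 6 in exons of non-coding genes. The median distance to the nearest start site of a protein-coding gene was 39990 bp, and 54.6% lay within 50000 bp of one. Intervals here and below cover counting error only.

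Gained regions were 146 to 1123 bp wide with a median of 406 bp, and their median GC content was 48.8%. Repeat-masked bases made up 20.04% of the window around the summit on average, against 35.1% at lost regions and 18.4% at regions called in all 6 lists. Chromosome X held 15 of them, 2.67% against 1.32% of all regions, a ratio of 2.03, followed by ratios of 1.58 for chromosome 15 and 1.38 for chromosome 14. The lost regions put 20 of 419 on chromosome X. Gained regions were scattered: 38 of the 562 lay within 50000 bp of another, in 19 pairs.

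TCF/LEF letters lay at 214 of the 562 summits (38.1%, interval 34.2 to 42.2). This exceeded the 9.61% found in windows of the same regions moved by 1000 bp and the 19.4% of all β-catenin regions. It was close to the 39.9% of lost regions and below the 51.6% of regions called in all 6 lists. The TCF/LEF share was 27.4% within 50 bp and 46.1% within 250 bp of the summit. There were 34 regions with at least 2 TCF/LEF matches and at most 3 in 1 window, and no TCF/LEF match overlapped a SOX match. Both kinds were present in 33 regions (5.87%, against 2.06% of all regions) and neither in 293.

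Gained and lost regions had intervals that did not overlap for several other letters. ZIC letters were found at 23.0% of gained regions (19.7 to 26.6) against 12.9% of lost (10.0 to 16.4), octamer letters at 6.94% (5.12 to 9.35) against 1.91% (0.971 to 3.72), KLF/SP letters (GGGNGGGG) at 21.2% (17.998 to 24.7) against 11.2% (8.54 to 14.6), AP-1 letters (TGA, then C or G, then TCA) at 10.1% (7.91 to 12.9) against 4.77% (3.11 to 7.26) and OTX/GSC letters (GGATTA) at 9.79% (7.60 to 12.5) against 3.10% (1.82 to 5.24). The direction was the other way for FOX letters (TGTTTAC), at 4.63% (3.18 to 6.69) against 19.6% (16.1 to 23.6), and for T-box letters (AGGTGTGA), at 1.25% (0.605 to 2.55) against 4.77% (3.11 to 7.26). The T-box share of the gained regions was close to the 1.36% of all regions and to the 1.07% of the moved windows. The lost regions also held more repeat-masked bases, whose part in these shares was not tested.

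For ZIC, KLF/SP and octamer letters the gained regions were near the level of those called in all 6 lists, which had 27.0%, 24.9% and 5.33%. AP-1 letters were at 10.1% of gained regions and 4.99% (4.35 to 5.72) of regions called in all 6 lists. SOX letters were at 15.7% (12.9 to 18.9), next to the 15.8% of regions called in all 6 lists, against 9.82% of all regions. CDX letters (C or T, then A or C, then ATAAA) were at 12.1%, below the 16.5% of the moved windows, and at 13.3% of all regions. TEAD letters (GGAATG) were at 16.2% of gained and 13.3% of all regions, GATA letters (A or T, then GATAA, then C or G) at 8.90% and 7.36%, homeobox letters (TAATTA) at 7.65% and 5.68%, FOXH1 letters (AATCCACA) at 0.890% and 0.820%, nuclear receptor letters (TCAAGGTCA) at 0.178% and 0.472%, and the CTCF motif at 0.356% and 0.316%. All 16 were searched on both strands, and a match is a description of letters, not a bound site.

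**Figure D2:**
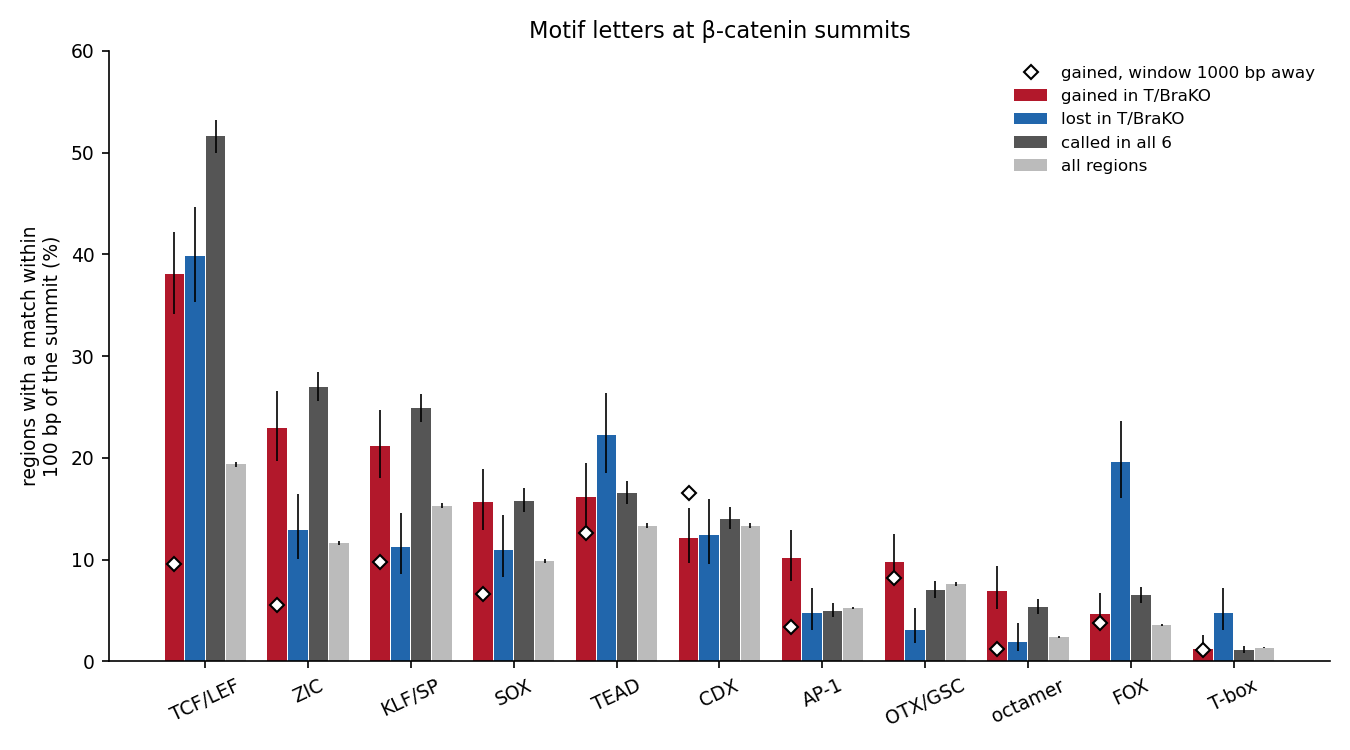
Share of regions (%) with a match to each set of motif letters within 100 bp of the β-catenin summit, for gained, lost, commonly called and all regions; bars show shares, lines the 95% Wilson interval, and diamonds the gained regions with the window moved by 1000 bp. TCF/LEF letters led in every set, at 38.1% of gained regions, and FOX letters stood at 19.6% of lost against 4.63% of gained regions.

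CdxKO β-catenin calls were not used to choose the regions. The CdxKO libraries called 38.1%, 41.1% and 27.9% of the gained regions, a mean of 35.7% ± 6.90 (SD, n = 3), against 20.4% of all regions. The same libraries called 78.9% ± 4.30 (SD, n = 3) of the lost regions and 86.4% ± 3.38 (SD, n = 3) of those called in all 6 lists. CdxKO thus called gained regions less often than lost regions in each of its libraries. Since the gained set excludes every region called in WT and the lost set requires such calls, CdxKO is set beside both and not tested against either.

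By region, 199 of the 562 were called in no CdxKO list, 178 in 1, 131 in 2 and 54 (9.61%) in all 3, against 5.69% of all regions, 64.2% of lost regions and 74.99% of regions called in all 6 lists. The same 562 regions were also compared with only the CdxKO lists shortened. The order against all regions then turned, at 0.534% against 2.79% with the 5000 best peaks and 3.38% against 4.33% with 10000. Without 1 CdxKO replicate, the remaining lists all called 15.5% to 20.996% of gained and 6.85% to 7.77% of all regions. The 5 best ranked of the 54 were nearest to Pik3c3, Foxk1, Igf2r, Enc1 (an actin-binding protein of the developing nervous system) and 4933407L21Rik. The Enc1 region (chr13:97432573-97433197, intergenic) had 19.3, 7.90 and 7.62 in T/BraKO, 10.9, 11.6 and 8.27 in CdxKO and 4.33 in the only WT list with a peak. The 5 best of the 199 were nearest to Arhgef3, Meaf6, Dpp6 (an auxiliary subunit of potassium channels), Kdm4d (a histone H3K9 demethylase) and Robo1 (a receptor for SLIT proteins). The intronic Robo1 region (chr16:72538178-72538433) had 15.1, 8.64 and 8.24 in T/BraKO, a single CdxKO peak at 3.04, and 4.34 and 3.09 in 2 WT lists.

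The gained regions called in all CdxKO lists differed from those called in none in AP-1 letters. These were present at 17 of the 54 called in all (31.5%, 20.7 to 44.7) and at 11 of the 199 called in none (5.53%, 3.11 to 9.63). Regions called in only some CdxKO lists enter neither group. The groups also differed in the median of the mean T/BraKO rank, at 7505 and 10549. Among regions called in all 6 WT and T/BraKO lists the same split gave 5.38% of 2899 and 2.04% of 196, and among all regions 6.91% and 4.54%. TCF/LEF letters did not separate the gained regions this way, at 38.9% and 36.7%. CDX letters were at 9.26% of the 54 (4.02 to 19.9) and at 19.6% of the 199 (14.7 to 25.7). In the regions called in all 6 lists, CDX letters were at 8.52% of those called in every CdxKO list and at 59.2% (52.2 to 65.8) of those called in none.

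**Figure D3:**
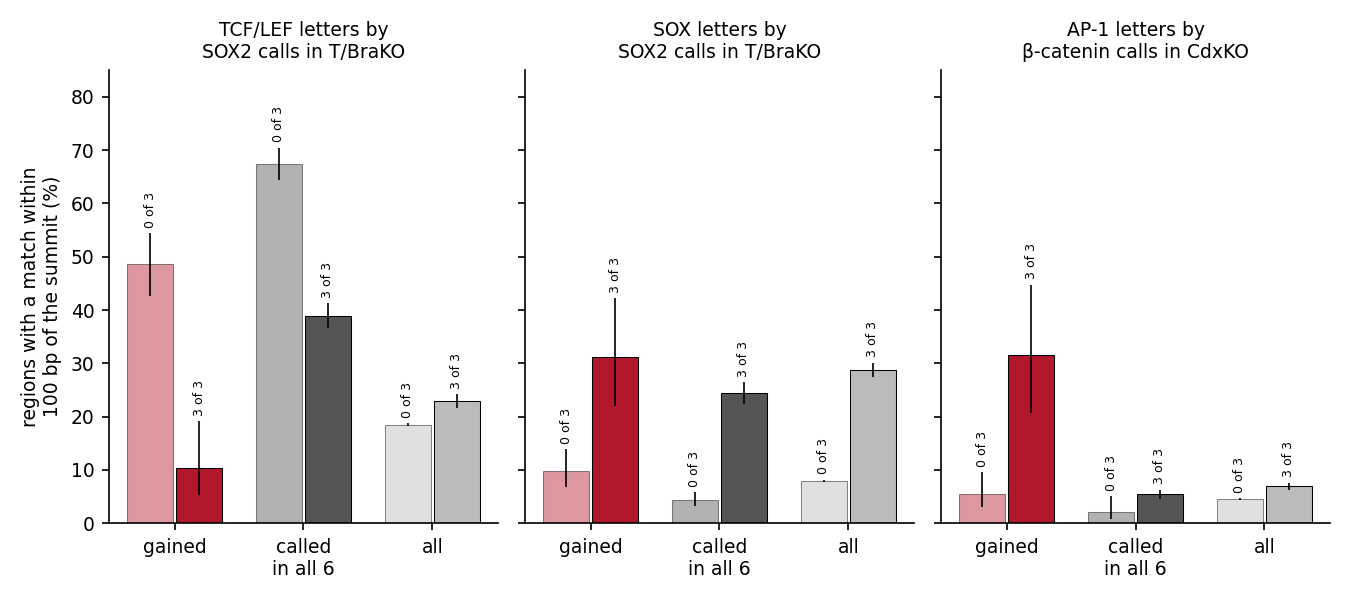
Share of regions (%) with TCF/LEF, SOX or AP-1 letters within 100 bp of the summit, for regions called in 0 or in 3 of the 3 T/BraKO SOX2 lists (left and middle) or CdxKO β-catenin lists (right); lines show the 95% Wilson interval. TCF/LEF letters were at 10.4% of gained regions with SOX2 in all T/BraKO lists and at 48.6% of those with SOX2 in none, SOX letters at 31.2% and 9.78%, and AP-1 letters at 31.5% and 5.53%.

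SOX2 was called at gained regions more often than LEF1. The T/BraKO SOX2 libraries called 23.5%, 31.0% and 39.1% of them, a mean of 31.2% ± 7.83 (SD, n = 3), and the WT libraries 9.79%, 11.4% and 23.1%, a mean of 14.8% ± 7.29 (SD, n = 3). Every T/BraKO library lay above every WT library, by a mean of 16.4 percentage points. CdxKO followed T/BraKO with 24.7% ± 2.89 (SD, n = 3; 22.4 to 27.9), which overlapped WT replicate 3, and WT without CHIR had 25.2% ± 1.49 (SD, n = 3; 23.5 to 26.2), which overlapped T/BraKO and CdxKO and lay above all WT libraries with CHIR.

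The SOX2 libraries also differed over all 96109 regions, of which WT with CHIR called 4.86%, 4.62% and 8.86% and T/BraKO 7.47%, 9.76% and 9.97%, with overlap. The mean was 9.29% in CdxKO and 9.08% in WT without CHIR. Relative to its share of all regions, each T/BraKO library called the gained regions 3.15, 3.17 and 3.93 times as often and each WT library 2.01, 2.46 and 2.61 times, so these groups did not overlap on this measure either. The same ratio was 2.55, 2.88 and 2.52 in CdxKO and 2.70, 2.52 and 3.16 in WT without CHIR, and both overlapped WT with CHIR. At the regions called in all 6 β-catenin lists the mean difference was 14.3 percentage points (59.4% against 45.0%) and the libraries overlapped, and at lost regions T/BraKO was lower by a mean of 11.0 points (7.40% against 18.4%). The part of the WT library differences in the result at gained regions was not tested.

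In the full SOX2 lists the difference at gained regions was 3.86 percentage points (50.3% in T/BraKO and 46.4% in WT), with overlapping libraries: T/BraKO 55.3%, 52.1% and 43.4%, WT 55.2%, 34.2% and 50%. These lists differed in length, from 26940 peaks in T/BraKO replicate 3 to 1008922 in WT replicate 1. Over all regions the full lists held a peak at 16.7% in T/BraKO and 22.8% in WT. Relative to its own share of all regions, the full-list share at gained regions was 2.73, 2.85 and 3.79 times as high in T/BraKO and 1.76, 2.13 and 2.38 times in WT, without overlap.

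**Figure D4:**
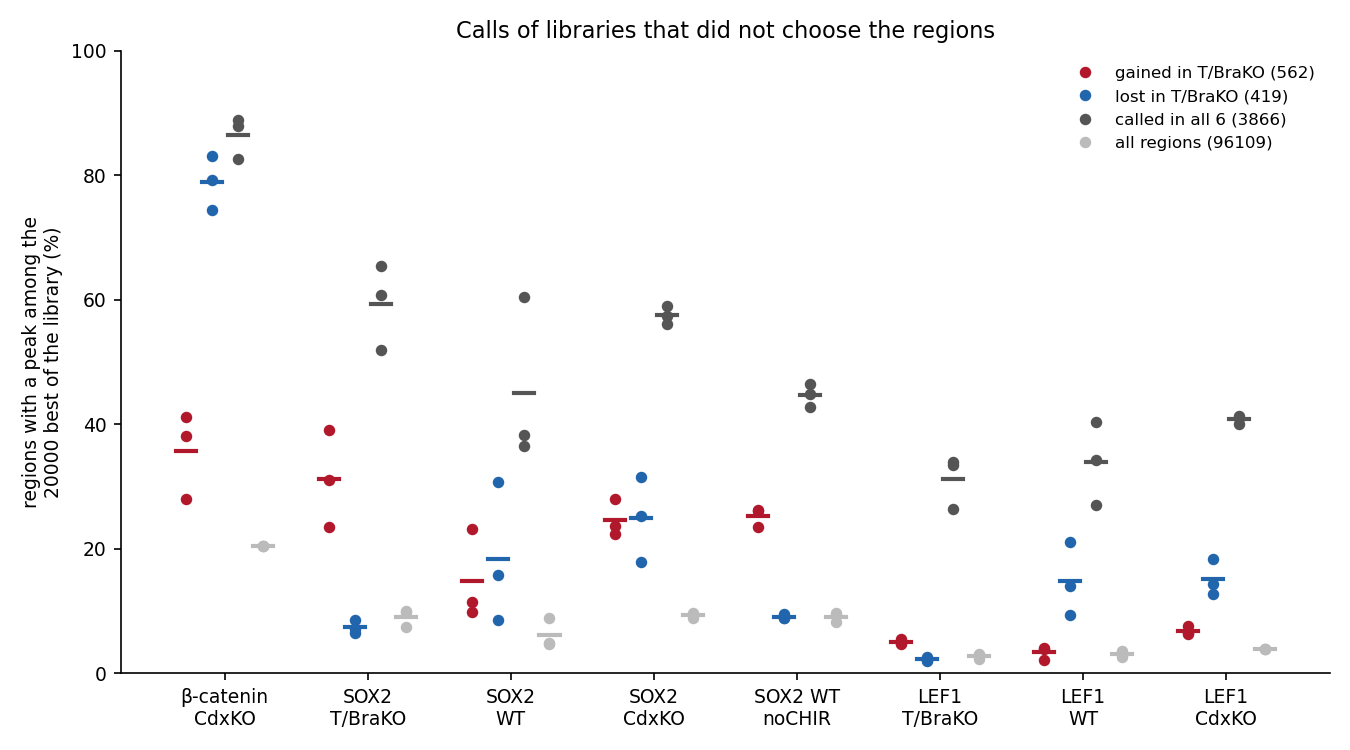
Share of regions (%) with a peak among the 20000 best of each library that did not choose the regions; points are libraries, bars their means, and colours the region sets. At gained regions the T/BraKO SOX2 libraries sat between 23.5% and 39.1% and the WT libraries with CHIR between 9.79% and 23.1%, whereas no LEF1 library exceeded 7.65%.

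Per region, SOX2 was called in all T/BraKO lists at 77 gained regions (13.7%, against 4.32% of all regions) and in none at 276 (49.1%, against 84.99%). Of the 77, 47 (61.0%) were also called in all WT lists without CHIR and 46 (59.7%) in all CdxKO lists, but 10 (13.0%) in all WT lists with CHIR. For the 1623 regions of the commonly called set with SOX2 in all T/BraKO lists, the shares were 66.4%, 79.4% and 51.5%, and for the 4152 such regions among all they were 67.8%, 72.1% and 36.1%. The median distance between SOX2 and β-catenin summits at gained regions was 44, 53.5 and 44 bp in the T/BraKO libraries and 38, 38 and 47 bp in WT without CHIR, and at commonly called regions it was 33 to 37 bp over these libraries.

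SOX and TCF/LEF letters differed with the SOX2 calls. Of the 77 regions with SOX2 in all T/BraKO lists, 24 (31.2%, 21.9 to 42.2) held SOX letters and 8 (10.4%, 5.36 to 19.2) held TCF/LEF letters. Of the 276 with SOX2 in none, 27 (9.78%, 6.81 to 13.9) held SOX letters and 134 (48.6%, 42.7 to 54.4) held TCF/LEF letters. The commonly called regions were split in the same direction, with SOX letters at 24.3% and 4.33% and TCF/LEF letters at 38.9% and 67.5%. Among all regions TCF/LEF letters were at 22.9% with SOX2 in all T/BraKO lists and 18.5% with SOX2 in none. SOX letters were at 28.7% and 7.97% of these, so their split was not particular to gained regions.

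SOX2 was called in all T/BraKO and no WT lists at 10 gained regions (1.78%), against 0.395% of all regions and 1.55% of the commonly called ones. The opposite pattern was found at 0 gained regions, with a background of 0.0312%. The best ranked of the 10 lay in an intron, 33669 bp downstream of the start site of Etv5, an ETS factor that responds to FGF (chr16:22402455-22402969). Its SOX2 fold enrichment was 7.50, 7.10 and 4.87 in T/BraKO, 4.33, 3.57 and 5.63 in WT, 7.74, 5.99 and 7.20 in CdxKO and 7.76, 10.8 and 9.83 in WT without CHIR. On this scale T/BraKO and WT overlapped, although their ranks did not.

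The second, in an intron of Thsd4, an extracellular matrix gene (chr9:60284930-60285425), had SOX2 folds of 8.86, 11.1 and 10.2 in T/BraKO and 3.97, 5.84 and 4.79 in WT, with no overlap. It had no SOX2 peak in CdxKO. The third, 72851 bp upstream of Nxph1, a ligand of neurexins (chr6:8875499-8875988), had 15.3, 8.99 and 4.85 in T/BraKO and 5.09, 4.18 and 6.02 in WT, which overlapped. At the Runx1t1 region, near a gene of a transcriptional corepressor, T/BraKO had 8.70, 7.57 and 5.12 and WT had 5.59 and 5.76 with 1 list empty. At the Gm17521 region on chromosome X, T/BraKO had 10.3, 8.42 and 4.53 and no WT list held a peak.

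To test SOX2 enrichment itself, log2 fold enrichment centred on each library's median was compared between T/BraKO and WT with limma over the 4441 regions that held a peak in all 6 full SOX2 lists. At a Benjamini-Hochberg adjusted p under 0.05, 0 regions were higher in T/BraKO (0%) and 1 was lower (0.0225%). At an unadjusted p under 0.05, 149 were higher and 126 lower. Only 72 gained regions could be tested, and 0 of them passed the threshold. Of these, 6 were higher and 0 lower at the unadjusted level, their median difference was 0.11 on the log2 scale, and 48 (66.7%) were positive, against 50.5% of all regions tested. Data of this design were also simulated from the region means, with 1 normal spread for all regions. The test then recovered 12% of changes of 1 on the log2 scale and 90% of changes of 2. In that setting a doubling was mostly missed. Left out of the simulation were differences in spread between regions and the need for a peak in all 6 lists.

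The tested gained regions with the largest SOX2 differences were nearest to Gm10767 and Zmynd8, a chromatin reader. At Gm10767 the SOX2 fold enrichment was 13.2, 28.8 and 25.8 in T/BraKO and 6.42, 11.6 and 6.59 in WT, without overlap. The limma difference was 1.26 ± 0.446 (SE) on the log2 scale with an adjusted p of 0.567. At Zmynd8 the values were 26.1, 29.8 and 11.9 in T/BraKO and 4.36, 6.91 and 15.8 in WT, which overlapped. Its difference was 1.25 ± 0.455 (SE) with an adjusted p of 0.577 in limma. These regions were singled out after their values were seen.

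LEF1 was rarely called at gained regions. The T/BraKO LEF1 libraries called 4.80%, 4.63% and 5.52% (mean 4.98% ± 0.471, SD, n = 3), the WT libraries 4.09%, 2.14% and 3.91% (3.38% ± 1.08) and the CdxKO libraries 6.41%, 7.65% and 6.23% (6.76% ± 0.776). These shares did not overlap between groups. The T/BraKO share exceeded the WT share by 1.60 percentage points, while over all regions it was lower by 0.250 points, with overlap (2.79% and 3.03%). Relative to its share of all regions, each T/BraKO library called the gained regions 2.06, 1.54 and 1.82 times as often and each WT library 1.15, 0.834 and 1.32 times, without overlap. CdxKO, which called 3.91% of all regions, had ratios of 1.63, 1.93 and 1.62, which overlapped those of T/BraKO. At commonly called regions LEF1 was called far more often, at 31.2% in T/BraKO and 33.9% in WT, and at lost regions it was called at 2.23% in T/BraKO and 14.8% in WT.

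In the full LEF1 lists a peak was found at 45.9%, 46.8% and 29.5% of gained regions in T/BraKO and at 36.8%, 34.9% and 17.6% in WT, a difference of 11.0 points with overlapping libraries, against 3.09 points over all regions. Relative to its share of all regions, the full-list share was 1.95, 1.92 and 2.27 times as high in T/BraKO and 1.69, 1.70 and 1.89 times in WT, without overlap. No gained region was called in all 3 LEF1 lists of T/BraKO (0.53% of all regions) or of WT (0.67%), and 3 were in CdxKO (1.04%). The pattern of all T/BraKO and no WT lists was therefore found at 0 gained regions (0.0323% of all regions), as was the reverse (0.111%).

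Over the 1419 regions with a peak in all 6 full LEF1 lists, limma called 0 higher (0%) and 1 lower (0.0705%) in T/BraKO, with 33 higher and 63 lower at an unadjusted p under 0.05. These included 6 gained regions, 0 of which passed, with a median difference of -0.11 on the log2 scale. The largest was at Rhcg, an ammonium transporter gene, with LEF1 fold enrichment of 5.22, 2.82 and 5.52 in T/BraKO and 17.4, 6.995 and 5.43 in WT. The groups overlapped, and the limma difference was -1.02 ± 0.486 (SE) with an adjusted p of 0.725. LEF1 at gained regions could thus be compared mainly by calls.

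The 562 regions had 525 different nearest protein-coding genes, of which 33 were nearest to at least 2 regions. Adgrl3, Bcl11a, Pcdh18 and Sertad2 were nearest to 3 each. Bcl11a encodes a zinc-finger repressor of neural and blood cells, and Pcdh18 a protocadherin. No gained region had a summit within 50000 bp of a start site of T. Within that distance lay a start site of 568 of 21827 protein-coding genes (2.60%).

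Of 260 genes in 10 developmental lists, 19 (7.31%) had a gained region within 50000 bp, 17 (6.54%) a lost one and 150 (57.7%) a commonly called one. The neural list had 6 of 37 genes near a gained region (Dbx2, Irx5, Lhx2, Lhx5, Meis1 and Otx1) and 0 near a lost one. The streak and paraxial mesoderm list had 5 of 29 (Cyp26a1, Mesp1, Mesp2, Pax3 and Tbx18), as many as were near a lost region. The pluripotency list had 2 of 29 (Etv5 and Tfcp2l1) and 0 near a lost region, the FGF list 2 of 18 (Spry2 and Spry4), and the Nodal and BMP list 2 of 27 (Bmp4 and Msx2). Nog was the only one of 18 endoderm and axial genes, and Tbx20 the only one of 15 lateral and cardiac genes. Lists with no gene within 50000 bp of a gained region were WNT pathway and feedback, Hox and adhesion. These had 0 of 32, 0 of 39 and 0 of 17, with 3 WNT and 6 Hox genes near a lost region. Commonly called regions lay within 50000 bp of 23 of 32 WNT, 39 of 39 Hox, 4 of 17 adhesion and 16 of 37 neural genes. Within 100000 bp, 2 of 32 WNT genes (Myc and Tcf7l2) and 1 of 17 adhesion genes (Cldn7) had a gained region. By nearest gene, 0 of 39 Hox genes went with a gained region and 1 with a lost one.

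Among the neural genes, an intronic region 3969 bp into Dbx2, a homeobox gene of the neural tube (chr15:95651845-95652341), had 10.3, 10.7 and 8.84 in T/BraKO, a single CdxKO peak at 5.91 and a single WT peak at 4.75. The region 1920 bp upstream of Meis1, a homeobox gene and HOX cofactor (chr11:19020464-19021183), had 8.71, 5.24 and 8.17 in T/BraKO, 4.75, 9.41 and 4.43 in CdxKO and 4.43 and 4.31 in 2 WT lists. Otx1 and Lhx2 are forebrain genes. The Otx1 region (chr11:21996781-21997700) had 7.44, 7.27 and 7.93 in T/BraKO and 4.07 and 5.87 in 2 WT lists. The Lhx2 region (chr2:38378996-38379487) had 9.92, 5.92 and 5.64 in T/BraKO and 6.50 in 1 WT list, so the values overlapped.

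For pluripotency and FGF genes, the intergenic region 2327 bp upstream of Tfcp2l1, a factor of naive pluripotency (chr1:118625435-118625844), had 7.08, 11.96 and 12.9 in T/BraKO, 6.15 and 9.12 in 2 CdxKO lists and 3.37 in 1 WT list. Its window, shown above, holds octamer letters. The Etv5 region had 13.5, 7.82 and 10.3 in T/BraKO, 4.98, 5.92 and 4.56 in CdxKO and 7.45 in WT replicate 3, close to the lowest T/BraKO value. Spry2, an FGF feedback inhibitor like Spry4, had 2 gained regions, the better ranked of which (chr14:105859145-105859826, intron) gave 15.5, 8.64 and 4.43 in T/BraKO, 4.69, 11.9 and 9.12 in CdxKO and 5.16 in 1 WT list, so all 3 genotypes overlapped in fold enrichment. SOX2 was called in all T/BraKO and CdxKO lists at that Spry2 region.

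Bmp4, a BMP ligand, had an intergenic region 8005 bp upstream (chr14:46398400-46398861) with 15.9, 5.92 and 12.9 in T/BraKO, a single CdxKO peak at 4.40 and 4.72 and 4.86 in 2 WT lists. No SOX2 peak was present there in T/BraKO. The BMP-responsive gene Msx2 had a region (chr13:53461342-53461998) with 7.23, 4.81 and 10.7 in T/BraKO and 4.38 in 1 WT list. The mesoderm genes Mesp2 and Mesp1 shared 1 region (chr7:79818244-79818696) with 12.9, 5.25 and 11.3 in T/BraKO, 7.32, 4.74 and 8.30 in CdxKO and 2.74 in 1 WT list. The region at the promoter of Cyp26a1, whose enzyme degrades retinoic acid (chr19:37697519-37698005), had 6.73, 6.995 and 8.84 in T/BraKO and 3.51 in 1 WT list. Each of these regions lay below the WT threshold in every WT library and held a WT peak in at least 1 full list.

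**Figure D5:**
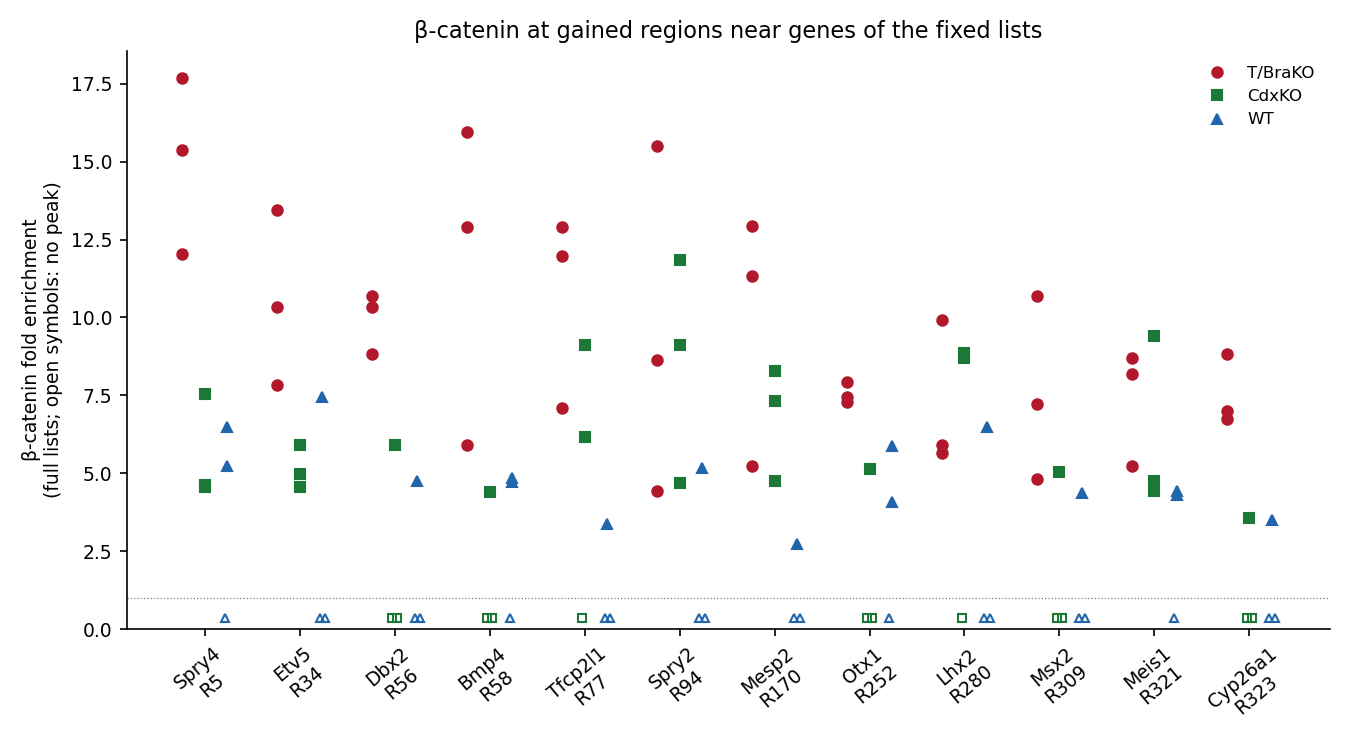
β-catenin fold enrichment (full lists) in each library at the 12 best ranked gained regions within 50000 bp of a gene of the developmental lists; filled symbols are peaks, open symbols below the dotted line are libraries without a peak. T/BraKO folds ran from 4.43 to 17.7, and each region held a WT peak in 1 or 2 of the 3 full lists.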

How the data were processed

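Chromatin from 10 groups of 3 biological replicates was analysed, which the study's methods describe as separate experiments and the labels give 1 experiment number. Single-end reads of 76 bases were aligned to mm10 with BWA, and MACS2 called narrow peaks in each library, within version 1.1.0 of nf-core/chipseq. The authors deposited a fold enrichment (ratio), a −log10 p-value and a −log10 q-value for each peak, and the lists stop near a q-value of 0.05. The 12 input samples were not used here, and which input served which library is not given in the sources used here. With 12 inputs for 30 immunoprecipitated libraries, β-catenin, SOX2 and LEF1 libraries of a genotype may share an input. Calls of these factors would then not be fully independent. The part of a shared input in the SOX2 and LEF1 results was not tested.

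Ranks follow −log10 q, with ties split by −log10 p and fold, over the 19 autosomes and both sex chromosomes. The regions, gene lists and comparisons were chosen with earlier results of these data known. GRCm38.p6 and GENCODE M21 were used for sequences and places. Each region carries the nearest protein-coding gene. Named regions were the best by mean T/BraKO rank: 10 in all, 5 without a WT peak, 5 called in all and 5 in no CdxKO list, 5 by SOX2 pattern (none existed for LEF1) and 12 near list genes. SOX2 and LEF1 folds were compared with limma (version 3.58.1), tested on simulated data, without values for missing peaks. P-values measure the spread between these replicates. Shares carry Wilson intervals at 95%.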

Additional observations from a re-analysis of the deposited data

How the results depend on the processing

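Of 92 alternatives computed for 24 results, 41 left the value within its spread or within 1.5 times and 51 moved it. A reversed sign was looked for only in the SOX2 and LEF1 call differences, where 0 were reversed. With the 5000 or 10000 best peaks, 140 and 304 regions were gained, and these overlapped 9 and 129 of the 562. The full lists gave 552 regions, but these overlapped only 103 of the 562. Ranking by fold enrichment gave 533 (438 of the 562 overlapped) and merging by summits 570 (517 overlapped). Leaving out 1 T/BraKO replicate gave 1026 to 1452 regions and leaving out 1 WT replicate 767 to 1214 (1214 without WT replicate 1), since fewer lists had to meet the rule.

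For the CdxKO, SOX2 and LEF1 calls, the 562 regions were kept and only the lists counted as calls were changed. The share of gained regions called in all CdxKO lists was 0.534% with 5000, 3.38% with 10000 and 25.6% with all peaks counted as calls (all regions 2.79%, 4.33% and 8.98%, so the order against all regions turned at 5000 and 10000), and 15.5% to 20.996% without 1 CdxKO replicate. The SOX2 difference between T/BraKO and WT was 5.63 percentage points with 5000 peaks, 3.86 in the full lists and 12.5 to 20.6 without 1 replicate, and that of LEF1 was 0.474, 11.0 and 0.979 to 1.96. For regions chosen without WT β-catenin replicate 1, an alternative chosen after seeing the data, the SOX2 difference was 17.1. The cause was not tested.

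In limma, SOX2 was higher at 1 region without centring, which moved the median of all regions to 0.18 on the log2 scale, and at 0 to 1 without 1 replicate (1 without WT replicate 1). LEF1 was higher at 0 to 2 regions without 1 replicate (2 without WT replicate 2). With the replicate block, SOX2 and LEF1 were higher at 0 regions each. LEF1 was lower at 1 region in the reported test, at 5 with the replicate block, without centring, with a peak in 2 of 3 lists and without WT replicate 1 or 2, and at 0 without WT replicate 3 or any T/BraKO replicate. SOX2 was lower at 0 to 2 regions in all its alternatives. No gained region was called in either direction in these fits. Same-numbered T/BraKO and WT libraries of SOX2 and LEF1 correlated at -0.110 to 0.110 in their deviations, and differently numbered ones at -0.0913 to 0.105. These values showed no pairing by number, which 3 libraries per genotype cannot settle. Motif shares of gained regions depended on the window: within 50 and 250 bp of the summit they were 6.94% and 28.3% for CDX, 0.534% and 3.02% for T-box, 5.69% and 14.2% for AP-1, 9.79% and 25.8% for SOX and 15.7% and 29.4% for ZIC letters. The promoter share was 6.58% within 500 bp and 17.1% within 2500 bp of a start site, and the number of list genes near a gained region was 30 within 100000 bp and also 30 by nearest gene. Peak lists hold no reads, so how far depth limits these calls is unknown.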
